A study of Homo sapiens with 18 samples.

Results

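The genes described here encode the Elongin subunits and the core of the ubiquitin ligases that Elongin BC serves: *ELOA*, *ELOB*, *ELOC*, *CUL2*, *CUL5*, *RBX1*, *RNF7*, *ARIH1*, *ARIH2* and *UBE2F*. They are 10 of the 20365 genes in each of the 2 tables of normalised counts, were taken by symbol from a fixed list of names, and all passed the filter on low values in both tables. RNA was sequenced from PC3, an established human prostate cancer cell line, with 18 libraries that form 6 groups of 3. For the knockdowns, lentiviral vectors brought a short hairpin RNA into cells grown with 10% fetal calf serum, and it was directed at Elongin B (EloB KD), at Elongin C (EloC KD) or was a control (Control KD). In the peptide experiment, cells in medium with 2.5% serum were exposed for 24 h to a BC-box peptide at 12.5 µM, either the wild-type form (WT peptide), a mutant form (Mutant peptide) or a scrambled one (Scrambled peptide). The labels name neither the hairpin sequences nor how many hairpins were used per gene, do not say what the control hairpin targets, and do not tell whether replicates came from separate cultures. The p-values therefore cover the spread among these libraries, which may be technical. In bulk RNA, fewer cells with a transcript and less of it per cell cannot be told apart. The peptides are compared at 1 dose and 1 time, and the change made in the mutant form is not described.

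Elongin B and Elongin C form a small heterodimer that works in several machines. With Elongin A it makes up Elongin, a factor that raises the rate of transcription by RNA polymerase II. The same dimer is the adaptor of cullin-RING ligases: it binds the BC box of a substrate receptor and links that receptor to the scaffold CUL2 or CUL5, whose other end holds a RING protein (RBX1 on CUL2, RNF7 on CUL5) that recruits the ubiquitin-conjugating enzyme. The scaffold is switched on by attachment of the ubiquitin-like protein NEDD8, which UBE2F transfers to CUL5, and ARIH1 and ARIH2 are RING-between-RING ligases that place the first ubiquitin on substrates held by such activated complexes. The comparisons below ask whether the mRNAs of the partners differed once one subunit was knocked down, and whether they differed after a peptide with the BC-box sequence.

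The knockdown libraries hold 40.3 to 57.2 M counted reads each, and the peptide libraries 31.7 to 34.7 M. The markers checked for the cell line gave KRT8, KRT18, EPCAM and VIM reads in every library and none for KLK3. Of 3 markers of other cells, PTPRC (blood cells) had at most 13.45, while PECAM1 (endothelium) had 689.6 to 2239 and COL1A1 (fibroblasts) 182.9 to 2464 normalised counts. PECAM1 had 2016 to 2239 in EloB KD, 1224 to 1408 in EloC KD and 1280 to 1837 in Control KD. COL1A1 moved with EloC KD: it had 492.7 to 835.8 in EloB KD, 1919 to 2464 in EloC KD and 485.6 to 657.4 in Control KD. EPCAM, an epithelial surface protein, had 1190 to 1477 in EloB KD, 365.5 to 607.3 in EloC KD and 1573 to 1945 in Control KD. KRT18 had 5780 to 6323 in EloB KD, 2547 to 3639 in EloC KD and 5136 to 6137 in Control KD. For KRT8 the ranges were 3316 to 4182 in EloB KD, 1981 to 2958 in EloC KD and 2605 to 3920 in Control KD. VIM overlapped Control KD in both knockdowns. The part of these markers in the results of the knockdowns was not tested.

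Both targeted genes were low in their own knockdown and in no other group. *ELOB* lies on chromosome 16 (chr16:2771414-2777297, minus strand, GRCh38). It had 596.3, 478.3 and 535.0 normalised counts in the 3 EloB KD libraries, against 2626, 4118 and 4950 in Control KD, so EloB KD kept 13.8% of the Control KD mean. The EloB KD libraries lie close together and far below every other library, whereas the Control KD libraries are spread, with replicate 1 lowest and a coefficient of variation of 30.2%. On the log2 scale *ELOB* fell by 2.82 ± 0.20 in EloB KD (standard error from limma, 3 libraries a group; adjusted p = 3.55e-05), a size at percentile 99.8 of all absolute changes in that comparison. *SRRM2*, a gene on the opposite strand that shares 190 exon bases with *ELOB*, differed by -0.01 in EloB KD (limma adjusted p = 0.943) and by 0.10 in EloC KD (limma adjusted p = 0.481).

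*ELOC* lies on chromosome 8 (chr8:73939169-73972287, minus strand). The 3 EloC KD libraries held 491.8, 497.4 and 557.9 normalised counts of it, and the Control KD libraries 4797, 4097 and 4547. The EloC KD libraries kept 11.5% of the Control KD mean and varied by 7.1% (coefficient of variation). *ELOC* fell by 3.12 ± 0.10 in EloC KD (limma adjusted p = 1.41e-07), at percentile 99.6 of all absolute changes. The annotation lists 33 pseudogenes named after *ELOC*, none of which has a row in the tables, and how reads that match several copies were counted is not given in the sources used here.

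No fall of the partner adaptor mRNA was detected in either knockdown. *ELOC* had 4135, 4512 and 4858 normalised counts in EloB KD, which overlaps its Control KD values, and the difference was 0.01 ± 0.10 (limma adjusted p = 0.971) with a 95% interval of -0.22 to 0.23. *ELOB* had 4563, 5603 and 5600 normalised counts in EloC KD. Each of these is higher than the Control KD library with the same replicate number, but the ranges overlap, because Control KD replicate 3 lies between the EloC KD values. The difference of *ELOB* in EloC KD was 0.47 ± 0.20 with a 95% interval of 0.03 to 0.92 and did not pass the threshold of 0.05 (limma adjusted p = 0.0803). It passed when the replicate number was a block (limma adjusted p = 0.035) and when Control KD replicate 3 was left out (0.67, adjusted p = 0.0186). Without Control KD replicate 1, the lowest *ELOB* library of that group, it was 0.21 (adjusted p = 0.26). The authors' deposited table gives an adjusted p of 0.0845 for it.

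**Figure D1:**
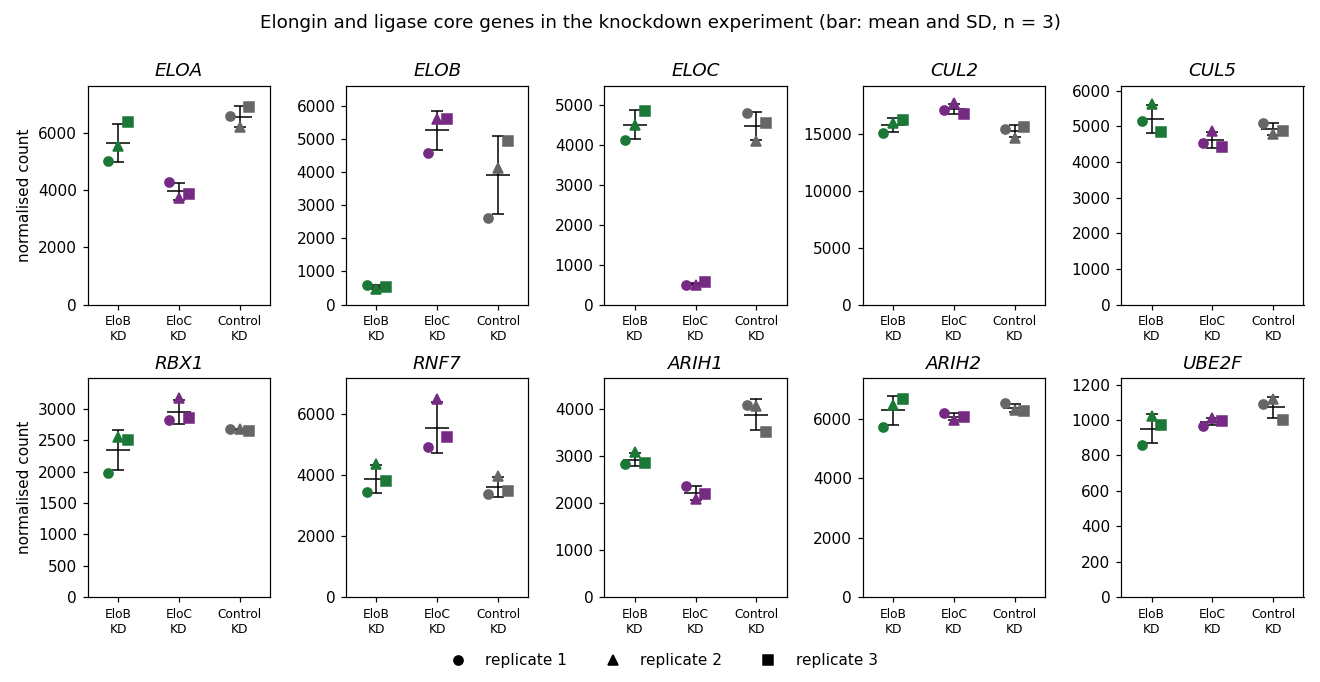
Normalised counts (y axis from 0) of the 10 genes in the knockdown libraries, with EloB KD left, EloC KD in the middle and Control KD right. Symbols are replicates 1 to 3, and the bar is the mean with its SD (n = 3). *ELOB* is low in EloB KD (478.3 to 596.3 counts) and *ELOC* in EloC KD (491.8 to 557.9), *ELOA* and *ARIH1* are lowest in EloC KD, and *RNF7* is highest there.

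Elongin A, the subunit that carries the transcription activity of the complex, had fewer transcripts in EloC KD. *ELOA* (chr1:23743155-23762059, plus strand) had 5023, 5516 and 6357 normalised counts in EloB KD, 4278, 3704 and 3864 in EloC KD, and 6583, 6187 and 6901 in Control KD. Every EloC KD library lies below every library of the other groups, while EloB KD overlaps Control KD. *ELOA* fell by 0.73 ± 0.10 in EloC KD (limma adjusted p = 0.000332), which left 60.2% of the Control KD mean. In EloB KD the difference was -0.22 ± 0.10 (limma adjusted p = 0.149; 95% interval -0.45 to 0.00). The direct comparison of EloB KD with EloC KD gave 0.51 ± 0.10 (limma adjusted p = 0.00237), higher in EloB KD. The change in EloC KD passed the threshold under all 20 alternatives tried, at -0.79 to -0.69.

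Neither scaffold passed the main test against Control KD. *CUL2* (chr10:35008551-35090642, minus strand), the scaffold of the VHL ligase among others, was the most counted of the 10 genes. It had 15087, 16016 and 16234 normalised counts in EloB KD, 17090, 17705 and 16807 in EloC KD, and 15488, 14642 and 15643 in Control KD. All EloC KD libraries were above all Control KD libraries, by 0.17 ± 0.07 on the log2 scale, and this difference missed the threshold (limma adjusted p = 0.0828). It passed with the replicate number as a block (limma adjusted p = 0.0468) and with DESeq2 on the recovered reads (adjusted p = 0.0419), and the authors' deposited table gives an adjusted p of 0.0428. In EloB KD *CUL2* differed by 0.05 ± 0.07 (limma adjusted p = 0.683).

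*CUL5* (chr11:108008733-108107776, plus strand), the scaffold of the SOCS-box ligases, had 5156, 5631 and 4845 normalised counts in EloB KD, 4543, 4873 and 4431 in EloC KD, and 5108, 4780 and 4868 in Control KD. The 3 ranges overlap, the EloB KD difference was 0.08 ± 0.08 (limma adjusted p = 0.533), and the EloC KD difference was -0.09 ± 0.08 (limma adjusted p = 0.398). EloB KD was higher than EloC KD by 0.17 ± 0.08 without passing the threshold (limma adjusted p = 0.115). That comparison passed under quantile scaling (0.28, limma adjusted p = 0.0111) and in edgeR with the replicate number as a block (0.18, adjusted p = 0.0403).

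Of the RING subunits, *RNF7* passed the test against Control KD, in EloC KD, and *RBX1* in neither knockdown; the difference between the 2 genes was not tested. *RNF7* (chr3:141738204-141747560, plus strand), the RING partner of CUL5, had 3455, 4368 and 3788 normalised counts in EloB KD, 4933, 6491 and 5245 in EloC KD, and 3380, 3969 and 3465 in Control KD. EloC KD stands above both other groups without overlap, with its own replicate 2 the highest, and in all 3 groups replicate 2 is the highest library. *RNF7* rose by 0.62 ± 0.13 in EloC KD (limma adjusted p = 0.00286), a mean of 154% of Control KD, and it differed by 0.10 ± 0.13 in EloB KD (limma adjusted p = 0.616). EloB KD was lower than EloC KD by the direct comparison (-0.52 ± 0.13, limma adjusted p = 0.00654).

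*RBX1* (chr22:40951347-40973309, plus strand), the RING partner of CUL2 and of most other cullins, had 1985, 2548 and 2509 normalised counts in EloB KD, 2827, 3180 and 2860 in EloC KD, and 2675, 2685 and 2658 in Control KD. Control KD was tight, all EloB KD libraries were below it and all EloC KD libraries above it. Neither difference from Control KD passed the threshold, at -0.20 ± 0.11 in EloB KD (limma adjusted p = 0.224) and 0.14 ± 0.11 in EloC KD (limma adjusted p = 0.303). EloB KD was lower than EloC KD by 0.34 on the log2 scale, given as EloB KD over EloC KD (-0.34 ± 0.11, limma adjusted p = 0.0239). That call was lost without EloB KD replicate 1 (-0.22, adjusted p = 0.0701), without EloC KD replicate 2 (-0.29, adjusted p = 0.0848) and under quantile scaling (-0.26, adjusted p = 0.0573).

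*ARIH1* was the one gene of the set that passed as lower in both knockdowns. It lies at chr15:72474326-72602985 on the plus strand. It had 2835, 3074 and 2842 normalised counts in EloB KD, 2365, 2079 and 2185 in EloC KD, and 4084, 4055 and 3504 in Control KD. The 3 groups do not overlap, with EloC KD lowest and EloB KD between. *ARIH1* fell by 0.41 ± 0.09 in EloB KD (limma adjusted p = 0.0118) and by 0.81 ± 0.09 in EloC KD (limma adjusted p = 0.00011), which left 75.2% of the Control KD mean in EloB KD and 56.9% in EloC KD. The difference between the knockdowns, 0.40 ± 0.09 higher in EloB KD, also passed (limma adjusted p = 0.00514). Both knockdowns were set against the same Control KD libraries, and the share of all genes that passed as lower in both was not computed. Of all genes, 11.2% passed as lower in EloB KD and 21.2% in EloC KD. Without Control KD replicate 2 the EloB KD value of *ARIH1* was -0.38 with an adjusted p of 0.0501, while its EloC KD call held under all 20 alternatives.

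*ARIH1* and *RNF7* moved in opposite directions in EloC KD, so the DNA upstream of their annotated starts is shown for these 2 genes. It is taken from RefSeq promoter windows (GRCh38.p14, plus strand, 5′ to 3′), which held 9 of the 10 genes, and ends before the first annotated base of each gene at chr15:72474080-72474325 and chr3:141738048-141738203. Capitals mark matches, on either strand, to the cAMP response element TGACGTCA, the GC box GGGCGG, the E box CACGTG, the CCAAT box or the TATA box TATAAA. 
ARIH1: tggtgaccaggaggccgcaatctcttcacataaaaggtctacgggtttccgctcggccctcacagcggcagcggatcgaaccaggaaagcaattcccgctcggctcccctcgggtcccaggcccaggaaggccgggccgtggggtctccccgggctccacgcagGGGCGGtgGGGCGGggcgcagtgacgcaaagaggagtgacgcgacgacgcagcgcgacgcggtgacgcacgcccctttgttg
RNF7: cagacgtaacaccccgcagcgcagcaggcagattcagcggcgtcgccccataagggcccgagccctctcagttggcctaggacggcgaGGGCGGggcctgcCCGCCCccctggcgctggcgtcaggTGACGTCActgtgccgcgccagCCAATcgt
The *ARIH1* stretch of 246 bases holds 2 matches to the GC box and none to the other motifs. The *RNF7* stretch of 156 bases holds 2 matches to the GC box, 1 to the CCAAT box and 1 to the cAMP response element. As background, 35116 promoter windows were cut to the same number of bases from their first base, not at each gene's own annotated start. At least 1 GC box lay in 42.2% of them at 246 bases. At 156 bases, at least 1 match lay in 26.9% for the GC box, 19.7% for the CCAAT box and 0.493% for the cAMP response element. For the cAMP response element the share was 1.63% at 246 bases. The cut windows need not reach a gene's start, as the 2 stretches shown do, so these shares are not a matched background. No match overlaps another. The matches describe the letters of these windows and nothing was measured at them.

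*ARIH2* and *UBE2F*, which act with CUL5 and RNF7, gave no call. *ARIH2* (chr3:48918821-48986382, plus strand) ranged from 5714 to 6652 normalised counts in EloB KD, from 5968 to 6182 in EloC KD and from 6262 to 6519 in Control KD. *UBE2F* (chr2:237966827-238042782, plus strand) ranged from 858.2 to 1021 in EloB KD, from 967.8 to 1012 in EloC KD and from 1001 to 1120 in Control KD. The EloC KD libraries of *ARIH2* all lay below Control KD, by -0.07 ± 0.08 (limma adjusted p = 0.521), and its EloB KD difference was -0.02 ± 0.08 (limma adjusted p = 0.875). *UBE2F* differed by -0.17 ± 0.10 in EloB KD (limma adjusted p = 0.263) and by -0.11 ± 0.10 in EloC KD (limma adjusted p = 0.409). The readthrough transcript *UBE2F-SCLY*, which shares 688 exon bases with *UBE2F*, had at most 5.763 normalised counts in any knockdown library.

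**Figure D2:**
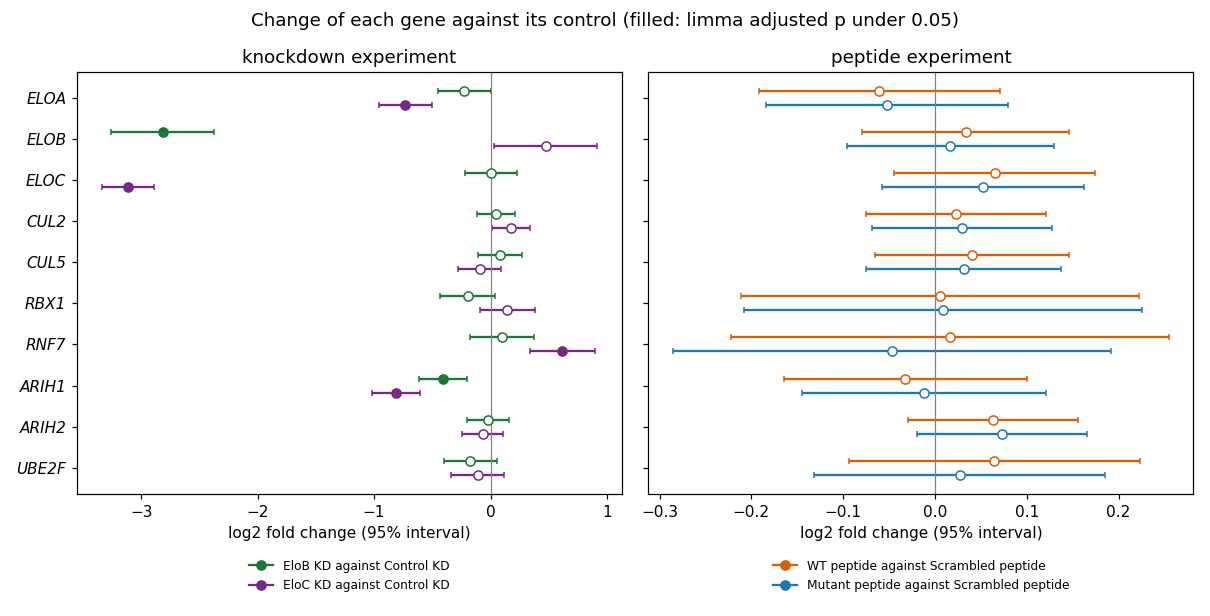
Log2 fold changes with 95% intervals from limma for the 10 genes. Left, EloB KD and EloC KD against Control KD; right, WT peptide and Mutant peptide against Scrambled peptide, on a narrower axis. Filled points passed an adjusted p of 0.05: *ELOB* and *ARIH1* in EloB KD, *ELOC*, *ELOA*, *ARIH1* and *RNF7* in EloC KD, and no gene in the peptide experiment.

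In the main test against Control KD, with the targeted genes counted, the share of the 10 genes that passed was close to that of all genes. In EloB KD 2 of the 10 genes passed, both lower, where 20.5% of the 13764 genes tested passed (9.34% higher, 11.2% lower). With the replicate number as a block the same number, 2, passed there, where 36.3% of all genes did. In EloC KD 4 of 10 passed, 1 higher and 3 lower, where 42.5% of all genes passed (21.3% higher, 21.2% lower). With the block, 6 of 10 passed in EloC KD, 3 in each direction, as *ELOB* and *CUL2* were added, where 57% of all genes passed (28.7% higher, 28.3% lower). Between EloB KD and EloC KD 6 of 10 passed, 3 in each direction, where 46.1% of all genes passed (22.3% higher, 23.8% lower). EloB KD and Control KD did not overlap for 3 of the 10 genes, where they did not for 38.4% of all genes. EloC KD and Control KD did not overlap for 7 of 10 (53.7% of all genes), and EloB KD and EloC KD for 7 of 10 (56.3% of all genes). The median log2 change of the 10 genes was -0.10 in EloB KD (0.00 over all genes) and -0.08 in EloC KD (0.01 over all genes). The median absolute change was 0.14 in EloB KD (0.23 over all genes) and 0.32 in EloC KD (0.35 over all genes). The targeted genes, which the design changes, are counted among the 10. *ELOB* is among those that passed in EloB KD, *ELOC* among those in EloC KD, and both among those between the knockdowns. Without the targeted genes each of these shares is lower.

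A ratio of partners within a library does not depend on how libraries were scaled. Levels were divided by the annotated exon length, and the ratios are descriptions without a test. Differences between groups do not depend on that length, but the ratio itself and its sign do. By the longest transcript, Control KD averaged -0.34 for *ELOA* over *ELOC* and -0.134 for *RNF7* over *RBX1*. The log2 ratio of *ELOB* to *ELOC* averaged -0.94 ± 0.24 in EloB KD, 5.47 ± 0.14 in EloC KD and 1.88 ± 0.54 in Control KD (SD, n = 3 each). The ratio lay on opposite sides of its Control KD value in the 2 knockdowns, by -2.83 in EloB KD and 3.59 in EloC KD relative to Control KD. *ELOB* is the target of EloB KD and *ELOC* that of EloC KD, so opposite shifts of this ratio were set by the design. The ratio of *ELOA* to *ELOC* averaged 0.19 ± 0.06 in EloB KD, 2.81 ± 0.17 in EloC KD and 0.42 ± 0.08 in Control KD. In EloC KD, where *ELOC* is the targeted gene, the ratio was higher although both genes were lower.

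The RING ratio, *RNF7* over *RBX1*, averaged 0.70 ± 0.11 in EloB KD, 0.88 ± 0.12 in EloC KD and 0.40 ± 0.12 in Control KD (SD, n = 3 each). Both knockdowns lay above Control KD without overlap, with EloB KD at 0.569 to 0.774, EloC KD at 0.778 to 1.0 and Control KD at 0.312 to 0.538. The scaffold ratio, *CUL5* over *CUL2*, was -1.99 ± 0.13 in EloB KD, -2.29 ± 0.03 in EloC KD and -2.02 ± 0.04 in Control KD, with EloC KD apart from Control KD. *ARIH2* over *ARIH1* was 2.62 ± 0.11 in EloB KD, 2.97 ± 0.07 in EloC KD and 2.23 ± 0.11 in Control KD, with no overlap between any of the groups. *UBE2F* over *UBE2M*, the NEDD8-conjugating enzyme of the RBX1 cullins, overlapped Control KD in both knockdowns, at -3.66 ± 0.05 in EloB KD, -3.46 ± 0.10 in EloC KD and -3.48 ± 0.19 in Control KD. The share of gene pairs whose ratio would be apart from Control KD was not computed. Taken singly, 38.4% of all genes were apart from Control KD in EloB KD and 53.7% in EloC KD.

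**Figure D3:**
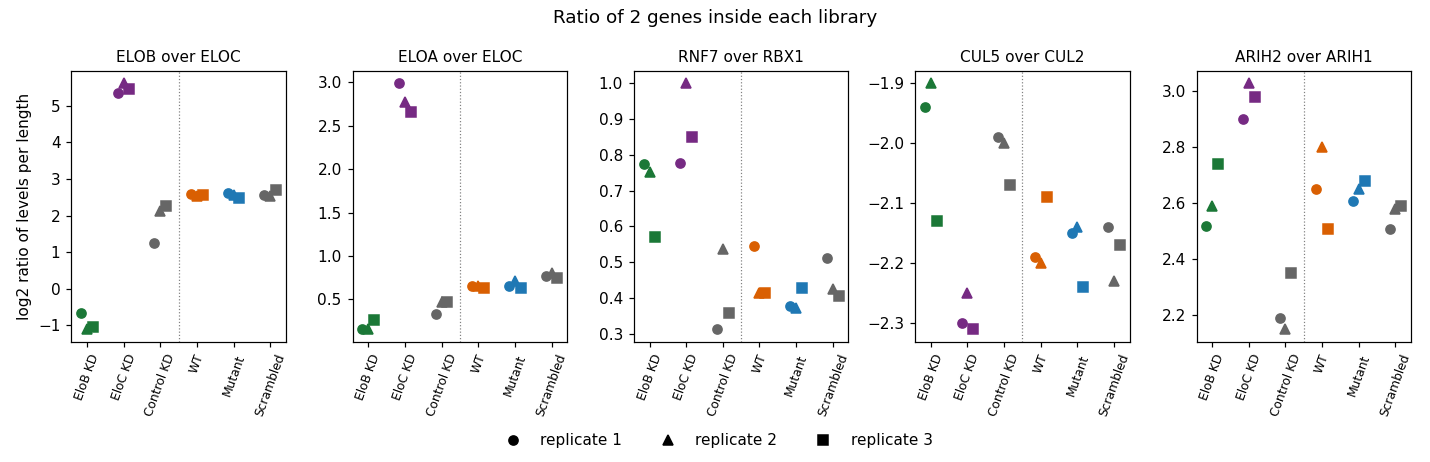
Log2 ratios of 2 genes inside each library, per annotated exon length (y axis, a different range in each panel). The dotted line separates the knockdown experiment (left) from the peptide experiment (right), which were normalised separately; symbols are replicates 1 to 3. *ELOB* over *ELOC* is near -0.94 in EloB KD, near 5.47 in EloC KD and near 2.6 in the peptide groups.

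Within a library the 10 genes span more than an order of magnitude per length. In Control KD the normalised count per kilobase of annotated exons was 3456 ± 1044 for *ELOB* and 2964 ± 105 for *CUL2* (SD, n = 3), whose ranges overlap. *ELOA* (1216 ± 66.3) and *RNF7* (1145 ± 101) came next and overlap each other, followed by *ELOC* (908 ± 72.0) and *RBX1* (864 ± 4.5), which also overlap. *ARIH2* (794 ± 17.1), *CUL5* (730 ± 25.2), *UBE2F* (253 ± 14.6) and *ARIH1* (170 ± 14.3) were each apart from their neighbours. The order rests on the length used (*ARIH1* has 22880 bases of annotated exons). By the longest transcript *ELOC* moved to place 3 and *ELOA* to place 7, while *ELOB* and *CUL2* stayed at the top and *UBE2F* and *ARIH1* at the bottom. In EloB KD *ELOB* was at place 8, with 476 ± 52.3 counts per kilobase. In EloC KD *ELOC* was at place 9, with 105 ± 7.43 counts per kilobase, and overlapped *ARIH1* at 96.6 ± 6.31. In the Scrambled peptide cells *ELOB* (3217 ± 150) and *CUL2* (1880 ± 59.5) led the order without overlap, and *UBE2F* (133 ± 3.62) and *ARIH1* (101 ± 3.13) again closed it.

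The wider machinery was read from lists of textbook components. Of 22 genes for NEDD8 attachment, cullin exchange and ubiquitin-conjugating enzymes, 6 passed in EloB KD (3 higher, 3 lower), where 20.5% of all genes passed, and 12 in EloC KD (9 higher, 3 lower), where 42.5% of all genes passed (21.3% higher, 21.2% lower). In EloB KD these included *UBE2D1*, a ubiquitin-conjugating enzyme (2040 against 1420 normalised counts, log2 change 0.51, limma adjusted p = 0.00935), and *CAND2*, a paralogue of the cullin exchange factor CAND1 (123.3 against 190.1, -0.62, limma adjusted p = 0.0146). In EloC KD both subunits of the enzyme that activates NEDD8 fell: *UBA3* had a mean of 1496 against 2571 in Control KD (-0.78 ± 0.09, limma adjusted p = 9.46e-05). *NAE1* had 5830 against 9464 (-0.70 ± 0.10, limma adjusted p = 0.000284). *CDC34*, a ubiquitin-conjugating enzyme of cullin ligases, rose to 2567 in EloC KD against 1421 in Control KD (0.86 ± 0.13, limma adjusted p = 0.000608). *DCUN1D3*, which helps NEDD8 transfer, rose to 956.3 against 646.9 (0.56 ± 0.12, limma adjusted p = 0.00418). The list's median was -0.05 in EloB KD and 0.18 in EloC KD.

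Of 13 substrate receptors used with CUL2, 3 passed in EloB KD (1 higher, 2 lower; 20.5% of all genes) and 4 in EloC KD (2 in each direction; 42.5% of all genes). Their median was -0.07 in EloB KD and 0.07 in EloC KD. *KLHDC3*, a receptor for C-terminal degrons, had a mean of 1821 normalised counts in EloB KD, 4784 in EloC KD and 2772 in Control KD. It was lower in EloB KD (-0.61 ± 0.13, limma adjusted p = 0.00981) and higher in EloC KD (0.78 ± 0.13, limma adjusted p = 0.00104), and the direct comparison gave -1.39 ± 0.13 (limma adjusted p = 3.04e-05). *APPBP2*, another such receptor, fell in EloB KD (3663 against 6001, -0.71 ± 0.10, limma adjusted p = 0.00135).

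Of 39 receptors used with CUL5, 28 passed the filter on low values, and of these 7 passed the test in EloB KD (3 higher, 4 lower; 20.5% of all genes) and 12 in EloC KD (4 higher, 8 lower; 42.5% of all genes). *SPSB1*, a SOCS-box receptor, rose to 3088 in EloC KD against 1188 in Control KD (1.37 ± 0.12, limma adjusted p = 2.94e-05). *ASB9*, another SOCS-box receptor, was lower in EloB KD (3843 against 5681, -0.56 ± 0.12, limma adjusted p = 0.009) and in EloC KD (2229 against 5681, -1.35 ± 0.12, limma adjusted p = 3.11e-05). *KLHDC1*, a Kelch-domain receptor, rose in EloB KD (215.1 against 105.1, 1.02 ± 0.20, limma adjusted p = 0.00514). The medians of the 28 genes were -0.02 in EloB KD and -0.15 in EloC KD. Of 5 other genes listed as binders or relatives of Elongin BC or partners of such binders, 3 were measured, and *MED8*, a Mediator subunit, rose in EloC KD (3031 against 2010, 0.59 ± 0.09, limma adjusted p = 0.000652). In the main test, no gene of the 4 lists passed in any peptide comparison. Of all genes, 1.43% passed there with the WT peptide and 0% with the Mutant peptide or between WT peptide and Mutant peptide. With the replicate number as a block, 16.2% of all genes passed with the WT peptide, 8.3% with the Mutant peptide and 4.09% between them. The lists were not read in that fit.

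The genes whose pattern over the 9 knockdown libraries was most like that of each Elongin subunit were looked up among 12284 genes with a mean of at least 50 counts. The Pearson r of log2 values is a description only, since the libraries form 3 groups. The hairpins also set the low values of *ELOB* in EloB KD and of *ELOC* in EloC KD. A high or low r with *ELOB* or *ELOC* therefore largely marks a gene that differed in that knockdown. The pattern of *ELOA* was closest to *CPSF3* (r = 0.993), *OGDH* (0.975) and *SMKR1* (0.975), and most opposite to *SPRY2* (-0.985), *BDNF* (-0.981) and *APLP2* (-0.979). For *ELOB* the closest were *IKBKG* (0.989), *PDXK* (0.988) and *TNIP2* (0.987), and the most opposite *CHSY3* (-0.989), *TCTN2* (-0.982) and *STK35* (-0.978). For *ELOC* the closest were *PHYH* (0.997), *FAM136A* (0.996) and *COBL* (0.994), and the most opposite *PEAR1* (-0.996), *EVA1A* (-0.994) and *HABP4* (-0.993). Within the set, *ELOA* ran with *ELOC* (0.914) and *ARIH1* (0.901) and against *RNF7* (-0.876). These values largely repeat the changes in EloC KD, where *ELOC* is the targeted gene.

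None of the 10 genes changed detectably with either peptide. *ELOB* had 3694, 3869 and 3575 normalised counts with the WT peptide, 3762, 3728 and 3520 with the Mutant peptide, and 3465, 3619 and 3803 with the Scrambled peptide. *ELOC* had 2703, 2924 and 2650 with the WT peptide, 2680, 2786 and 2731 with the Mutant peptide, and 2586, 2738 and 2583 with the Scrambled peptide. *ELOA* had 4639, 5040 and 4490 with the WT peptide, 4610, 5005 and 4629 with the Mutant peptide, and 4825, 5214 and 4731 with the Scrambled peptide. All 3 genes overlap between the groups.

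WT peptide against Scrambled peptide gave log2 differences from -0.06 to 0.07 over the 10 genes, with 95% intervals within -0.22 to 0.25 and limma adjusted p-values from 0.579 to 0.993. Mutant peptide against Scrambled peptide gave -0.05 to 0.07, with intervals within -0.29 to 0.23 and limma adjusted p-values from 0.687 to 0.993. WT peptide against Mutant peptide, forms that differ by the unspecified mutation, gave -0.02 to 0.06, with intervals within -0.22 to 0.30 and limma adjusted p-values from 0.993 to 0.998. These are 3 pairs of peptides, and the p-values are adjusted over the genes of each pair. No gene of the set had an unadjusted p under 0.05 in any of the 3, and none was called by edgeR, DESeq2 or the fit with the replicate number as a block. Over all 13105 genes, 1.43% passed with the WT peptide and 0% with the Mutant peptide or between WT peptide and Mutant peptide. For the WT peptide 0.839% were higher and 0.595% lower. An unadjusted p under 0.05 was reached by 1141 genes for the Mutant peptide and by 898 between WT peptide and Mutant peptide. With the block, 16.2% of all genes passed with the WT peptide, 8.3% with the Mutant peptide and 4.09% between them. For no gene of the set were the groups apart, where they were for 19.7% of all genes with the WT peptide, 13.7% with the Mutant peptide and 12.1% between the forms.

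Of the 6 ratios, 2 were apart from the Scrambled peptide in at least 1 peptide group, and the share of gene pairs that would be was not computed. *ELOA* over *ELOC* was 0.647 ± 0.013 with the WT peptide, 0.668 ± 0.044 with the Mutant peptide and 0.773 ± 0.028 with the Scrambled peptide (log2, SD, n = 3 each). Both BC-box forms lay below the Scrambled peptide without overlap, at 0.633 to 0.658 for the WT peptide, 0.633 to 0.717 for the Mutant peptide and 0.745 to 0.801 for the Scrambled peptide. *ARIH2* over *ARIH1* was also apart for the Mutant peptide (2.64 ± 0.04 against 2.56 ± 0.04). The mean *ELOA* over *ELOC* ratio differed from the Scrambled peptide by -0.126 for the WT peptide and -0.105 for the Mutant peptide. The same ratio differed from Control KD by -0.232 in EloB KD and by 2.39 in EloC KD, where *ELOC* is the targeted gene. No test was made of these ratios.

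For *RNF7* and *RBX1* the libraries of number 2 lay below the others in every peptide group. *RNF7* had 2607, 2244 and 2615 normalised counts with the WT peptide, 2489, 2078 and 2596 with the Mutant peptide, and 2652, 2152 and 2592 with the Scrambled peptide. *RBX1* had 1755, 1654 and 1927 with the WT peptide, 1884, 1579 and 1894 with the Mutant peptide, and 1826, 1575 and 1923 with the Scrambled peptide. For both genes replicate 2 was the lowest library of every group, with a mean log2 difference from the others of -0.264 for *RNF7* and -0.221 for *RBX1*. *CUL5*, *ARIH1* and *UBE2F* were also lowest in replicate 2 of all 3 groups, and *ELOA* and *ELOC* were highest there. Over all genes, 24.0% were lowest and 21.9% highest in replicate 2 of all 3 groups. Leaving out the libraries of number 2, an alternative chosen after seeing the data, left 0 calls among the 10 genes in each of the 3 comparisons.

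**Figure D4:**
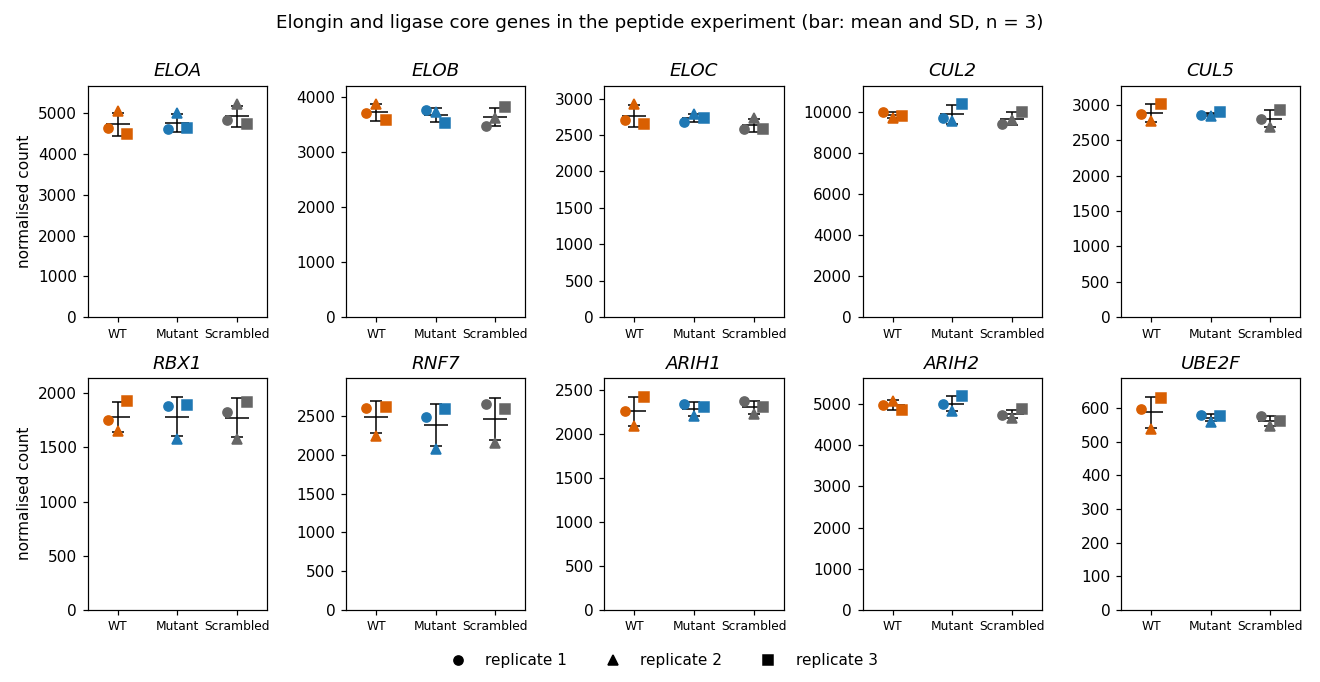
Normalised counts (y axis from 0) of the 10 genes in each library of WT peptide, Mutant peptide and Scrambled peptide. Symbols are replicates 1 to 3, and the bar is the mean with its SD (n = 3). The groups overlap for every gene, and replicate 2 is lowest for *RNF7* (2078 to 2244 counts) and *RBX1* (1575 to 1654) in all groups.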

How the data were processed

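Stranded mRNA libraries of PC3 cells were made from column-purified total RNA, per the labels' protocols. The submitters' processing notes name the build hg38 and the tools featureCounts and DESeq2, without versions or roles. The aligner and the strand setting of the counting are not given in the sources used here. Each of the 2 deposited tables, one per experiment, holds the signal per gene and library as the authors' normalised read count. The authors also deposited an adjusted p-value per gene for 4 comparisons, which is quoted here where named as the authors' deposited table and entered no test. Dividing each library by its smallest step recovered whole reads within 0.05 reads.

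The main test was limma 3.58.1 (R 4.3.3) with an intensity trend on log2 of the normalised count plus 1, over genes with a mean of at least 10 in the 9 libraries of an experiment. Of 20365 genes, 13764 (knockdown) and 13105 (peptide) were kept. Fold changes on this scale understate those of low genes. Spread was estimated jointly over the 3 groups of each experiment, 6 comparisons were made, tests were 2-sided, and p-values were adjusted over all genes (Benjamini-Hochberg, threshold 0.05). The 2 tables were normalised separately and were never tested against each other. Every gene of the set is reported in every comparison, with up to 4 called genes of smallest adjusted p per list considered for naming. The members and lists were chosen with earlier results of these data known.

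Alternatives were TMM and quantile scaling, pseudocounts 0.5 and 5, no filter and a filter at 50, only the 6 libraries compared, each library left out, the replicate number as a block, and edgeR 4.0.16 and DESeq2 1.42.0 on recovered reads. Libraries with the same number deviated together: the correlation of their deviations from group means was 0.236 to 0.566 among knockdown libraries (other pairs -0.439 to 0.0703) and 0.254 to 0.715 among peptide libraries (other pairs -0.546 to 0.336), over 9 pairs each. By this measure the numbers pair the samples. The main test has no block, and the value with the block is given beside a result where it changes the call. Gene positions and lengths are from GENCODE 29. The limma code was tested on simulated data. Some of the cell line markers checked are not reported here.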

Additional observations from a re-analysis of the deposited data

How the results depend on the processing

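Of 1230 values of the 10 genes under other settings, 8 newly passed, 4 no longer passed and 1 that passed in neither moved by more than its error: *ARIH2* in EloB KD was 0.09 under quantile scaling and -0.02 in the main test. The other 1217 stayed on the same side of the threshold. The sign was opposite to the main value in 50 of the 1230, none of which passed in either setting. With the replicate number as a block, *ELOB* in EloC KD kept 0.47 and passed (limma adjusted p = 0.035; edgeR with the block 0.47, adjusted p = 0.0377). The block raised the genes called to 4996 for EloB KD, 2122 for WT peptide, 1088 for Mutant peptide and 536 for WT against Mutant peptide. In edgeR with the block they were 5054 for EloB KD, 2114 for WT peptide, 1116 for Mutant peptide and 547 for WT against Mutant peptide. The main test called 2822 for EloB KD, 188 for WT peptide and 0 in the other pair of comparisons. DESeq2 called 536 for WT peptide, 169 for Mutant peptide and 54 for WT against Mutant peptide. Without the libraries of number 2, an alternative chosen after seeing the data, 37 genes passed for Mutant peptide and 21 for WT against Mutant peptide. Leaving out 1 library at a time gave 1920 to 2871 genes for EloB KD, 66 to 205 for WT peptide (66 without WT peptide replicate 3, 67 without WT peptide replicate 1, 95 and 98 without Scrambled peptide replicates 1 and 2), 0 to 1 for Mutant peptide and 0 to 2 between the peptides. Of the 10 genes it left 1 to 2 called in EloB KD, 4 to 5 in EloC KD and 5 to 6 between the knockdowns, and *ELOB* in EloC KD ranged from 0.21 to 0.67. The cause of these shifts was not tested. With 3 libraries a group, the width of the 95% intervals on the peptide differences varied by gene. Between WT peptide and Mutant peptide it was widest for *RNF7* (-0.18 to 0.30 on the log2 scale) and narrowest for *ARIH2* (-0.10 to 0.08). For each gene, changes inside its interval could not be told from none.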
